A study of Mus musculus with 16 samples.

Results

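The histone genes described here were all genes in the annotation of the array whose current or older symbol is that of a core histone, a linker histone or one of their variants. The rule found 34 of them, 28 by their current symbol and 6 by an older one only, and 31 of the 34 had a probe set of their own among the 17097 genes measured. By symbol, 18 of the 31 were replication-dependent histones, 9 were variant histones and 4 were germ-line histones of testis or oocyte. The other 3, H2ac18, H2ac19 and H3f3a-ps2, were measured only by probe sets that are shared with another gene. RNA was measured on Affymetrix arrays in mammary epithelial cells freshly sorted from 4 female mice on a mixed C57BL/6J and 129 background, aged 10 weeks and 2 days, with no treatment. Knockout mice (2 animals) were Sox2-Cre +/+ and Cpeb2 -/-, and the wild-type mice (2 animals) were Sox2-Cre +/+ and Cpeb2 +/+. All 4 mice therefore carried the Cre transgene, whose driver is active in the early embryo, and no mouse without it was analysed here. Each mouse gave 4 populations and so 4 of the 16 arrays. These were myoepithelial cells (Myo, low for Epcam and high for CD49f) and, from the luminal gate, non-clonogenic luminal cells (NCL, Sca1 positive and CD49b negative), ductal progenitors (DP, positive for both) and alveolar progenitors (AP, Sca1 negative and CD49b positive). Cpeb2 encodes a cytoplasmic polyadenylation element binding protein, which acts on the poly(A) tails and the translation of messenger RNAs.

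Histones H2A, H2B, H3 and H4 form the core around which DNA is wrapped, and linker histone H1 binds where the DNA enters and leaves it. Replication-dependent histone genes lie in clusters, are transcribed mainly while DNA is copied in S phase, and give messenger RNAs that end in a conserved stem-loop in place of a poly(A) tail, although several of them also give polyadenylated RNAs in differentiated cells. Variant genes lie alone, have introns in most cases, give polyadenylated RNAs and are expressed outside S phase as well. H2ax is known to make both kinds of RNA end. How far RNAs without a poly(A) tail were captured on these arrays was not tested, so a replication-dependent value may stand for only part of a gene's RNA. According to RefSeq, 14 of the 34 genes lie on chromosome 13, which holds the main histone cluster of the mouse. The 14 include the variant Macroh2a1, which lies far from the others on that chromosome.

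The promoters of the 2 classes can be set side by side, and those of 28 of the 34 genes matched the RefSeq table (GRCm38.p6). In the 250 bases upstream of each start, 4 motifs were searched on both strands, each with its reverse complement. They were CCAAT, the box TATAAA, the octamer ATTTGCAT known from H2B promoters, and the H1 box, which is spelled AAACACA. None of the 4 contains another. CCAAT was in 11 of 16 replication-dependent windows and 5 of 8 variant windows, and in 33.8% of all 32851 promoter windows of that length. TATAAA was in 6 of 16 and 1 of 8, against 12.4% of all windows. The octamer was in the windows of H2aw and H2bc18 and in that of the variant H3f3b, against 1.6% of all windows. The H1 box was in H1f2 and H1f4, in the variant H3f3a and in the germ-line H1f6, against 6.25% of all windows. A match describes these letters only. The 6 windows below belong to genes on which the results turn. H1f2, H2aw and H2bu2 were higher in NCL and DP than in AP. In knockout NCL and DP, H2az1 was lower, as was H3c14 by the brighter but not the dimmer of its 2 probe sets. H3f3b is a variant with nearly level RNA. Capitals mark a match to any of the 4 motifs, and H3c14 has none.
H1f2 (chr13:23738557-23738806, plus strand): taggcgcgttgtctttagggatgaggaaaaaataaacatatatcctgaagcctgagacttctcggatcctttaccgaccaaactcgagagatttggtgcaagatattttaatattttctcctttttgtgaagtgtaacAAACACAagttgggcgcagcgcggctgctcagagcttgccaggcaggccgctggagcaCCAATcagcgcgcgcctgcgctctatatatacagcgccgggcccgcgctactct
H2aw (chr11:58954435-58954684, plus strand): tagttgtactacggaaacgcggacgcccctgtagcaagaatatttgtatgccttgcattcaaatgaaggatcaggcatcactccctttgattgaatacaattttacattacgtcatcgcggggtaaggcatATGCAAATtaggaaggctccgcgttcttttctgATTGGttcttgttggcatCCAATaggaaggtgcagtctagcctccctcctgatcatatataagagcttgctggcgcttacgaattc
H2bu2 (chr11:58948661-58948910, plus strand): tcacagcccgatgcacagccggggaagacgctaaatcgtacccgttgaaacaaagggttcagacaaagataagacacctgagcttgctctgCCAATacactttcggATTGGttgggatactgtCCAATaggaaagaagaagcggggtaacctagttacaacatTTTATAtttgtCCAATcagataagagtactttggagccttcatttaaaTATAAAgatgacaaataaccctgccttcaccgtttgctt
H3c14 (chr3:96246435-96246684, plus strand): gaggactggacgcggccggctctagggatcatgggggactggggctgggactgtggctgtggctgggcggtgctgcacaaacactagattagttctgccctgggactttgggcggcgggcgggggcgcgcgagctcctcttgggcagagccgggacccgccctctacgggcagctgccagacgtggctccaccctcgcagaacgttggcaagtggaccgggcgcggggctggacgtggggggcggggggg
H2az1 (chr3:137864237-137864486, plus strand): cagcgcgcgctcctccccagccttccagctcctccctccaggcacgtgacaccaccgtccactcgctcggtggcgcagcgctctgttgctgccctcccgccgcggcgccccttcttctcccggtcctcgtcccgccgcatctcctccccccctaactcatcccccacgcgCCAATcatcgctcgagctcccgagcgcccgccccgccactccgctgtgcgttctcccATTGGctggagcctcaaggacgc
H3f3b (chr11:116024505-116024754, minus strand): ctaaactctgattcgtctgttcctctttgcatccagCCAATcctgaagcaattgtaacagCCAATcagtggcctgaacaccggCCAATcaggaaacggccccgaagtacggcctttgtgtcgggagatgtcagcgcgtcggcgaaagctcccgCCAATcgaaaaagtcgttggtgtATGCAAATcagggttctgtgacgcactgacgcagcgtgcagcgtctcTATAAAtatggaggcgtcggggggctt

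The values are log2 expression values per probe set, and each gene is given by its brightest probe set on average over the 16 arrays. Since each gene has its own probes, levels are compared between arrays and never between genes. Over all probe sets, the replicates of a group correlated at r = 0.975 to 0.991, and the 2 arrays per genotype and population limit the precision. The targeted gene checks the labels: Cpeb2 was 8.33 and 8.66 in wild-type and 6.42 and 7.67 in knockout NCL, 7.88 and 8.00 against 6.39 and 7.35 in DP, 5.52 and 5.53 against 5.45 and 4.81 in AP, and 5.41 and 6.03 against 5.25 and 4.71 in Myo. It was lower in the knockout arrays of each population, and over the 4 populations it differed by -0.92 ± 0.21 (SE, limma adjusted p = 0.0201). In no single population was it under 0.05 (limma adjusted p = 0.0933 in NCL, 0.113 in DP, 0.925 in AP and 0.449 in Myo). The check is weak in AP and Myo, where wild-type values were little above the lower quartile of the arrays (5.08 to 5.18). The sorted cells carried their markers, with a mean level over 8 myoepithelial markers of 11.90 to 12.14 in Myo and 6.73 to 7.63 in the other arrays, and over 7 luminal markers of 11.54 to 12.17 in the luminal arrays and 8.99 to 9.55 in Myo. Over 6 hormone-sensing markers it was 10.64 to 11.64 in NCL and DP and 7.24 to 8.2 in AP, where wild-type mouse 1 was the highest. Over 8 alveolar markers it was 6.09 to 6.19 in NCL, 8.58 to 9.65 in DP and 10.67 to 11.2 in AP. DP thus lay between NCL and AP in alveolar markers. Arrays stood apart in 3 ways. The fibroblast list (7 genes, 2 to 4 of them under the lower quartile of the array in each array) was at 1.86 above its own mean in the DP array of wild-type mouse 1 and at -0.86 to 0.54 in the others. The endothelial list (7 genes, 0 to 2 under the lower quartile) was at 1.26 in the Myo array of knockout mouse 2 and at -0.37 to 0.67 elsewhere. A list of 17 mitosis genes was at 1.5 in AP and 1.02 in Myo of wild-type mouse 2 but at -0.27 and -0.67 in those of wild-type mouse 1.

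**Figure D1:**
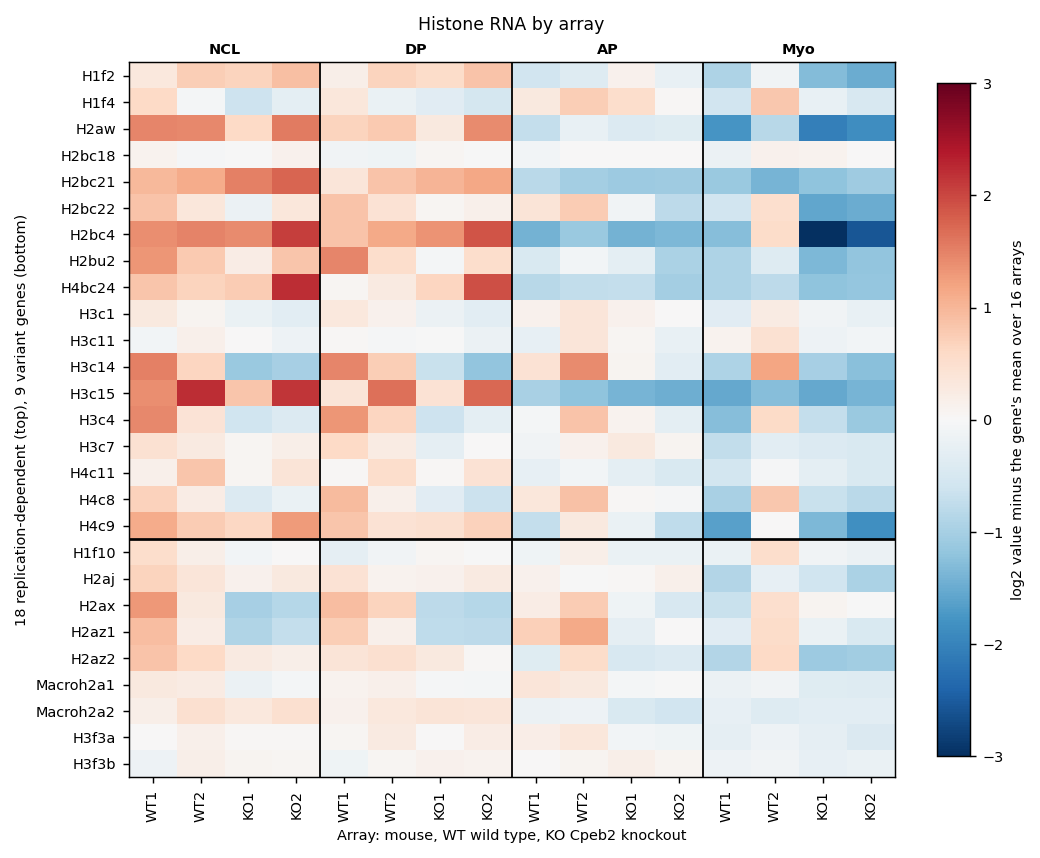
Heat map of the log2 value of each histone gene minus its own mean over the 16 arrays (colour scale), with 18 replication-dependent genes above the black line and 9 variant genes below it, in arrays ordered by population and mouse. H2bc21, H2bc4 and H3c15 are above their mean in NCL and DP and below it in AP. H2ax, H2az1 and the brighter probe set of H3c14 are lower in the knockout arrays of NCL and DP.

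The populations were compared first, over both genotypes, to ask where the 2 classes of histone RNA were high. At least 1 replication-dependent gene of each core family and of H1 was higher in NCL and in DP than in AP, and so was the variant Macroh2a2. The largest differences in NCL were 7.55-fold in H2bc4, 7.48-fold in H3c15 and 5.02-fold in H2bc21. Differences are fitted log2 differences ± SE from limma, and calls were made where the p adjusted by Benjamini-Hochberg over all 17097 genes was under 0.05. In NCL against AP, 9 of 18 replication-dependent genes were called higher, where 15.9% of all genes were, and 0 were called lower, where 12.6% of all genes were (0 also at an unadjusted p under 0.05). Their median difference was 0.45, beside 0.03 over all genes. Of the 9 variants, 1 was called higher and 0 lower (1 lower at an unadjusted p under 0.05), with a median of -0.03. In DP against AP, 8 of 18 replication-dependent genes were called higher, where 11.3% of all genes were, and 0 lower, where 10.7% of all genes were (0 also unadjusted), with a median of 0.42 beside 0.01 over all genes. Again 1 of 9 variants was called higher and 0 lower (1 lower unadjusted), with a median of 0.01. The 2 comparisons share their AP arrays. In bulk samples, fewer cells of a type and less RNA per cell cannot be told apart.

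H2bc4, an H2B gene, was at 11.28, 11.38, 11.31 and 11.96 in NCL of wild-type mice 1 and 2 and knockout mice 1 and 2, at 10.76, 11.02, 11.24 and 11.79 in DP, and at 8.47, 8.79, 8.47 and 8.54 in AP. The groups did not overlap, and H2bc4 was 7.55-fold higher in NCL (2.92 ± 0.31, limma adjusted p = 1.6e-05) and 6.20-fold higher in DP (2.63 ± 0.31, limma adjusted p = 5.93e-05) than in AP. H2bc21, another H2B gene, was at 6.81, 6.95, 7.36 and 7.58 in NCL, at 6.20, 6.70, 6.87 and 7.0 in DP, and at 5.03, 4.83, 4.76 and 4.77 in AP. Every AP value was under the lower quartile of its array (5.08 to 5.18), so the differences of 2.33 ± 0.11 and 1.84 ± 0.11 (limma adjusted p = 2.34e-08 and 3.82e-07) may understate the true size. The same holds for the H3 gene H3c15, at 7.32, 8.14, 6.75 and 8.07 in NCL, 6.31, 7.58, 6.36 and 7.65 in DP and 4.95, 4.72, 4.53 and 4.47 in AP. It differed by 2.90 ± 0.34 in NCL and by 2.31 ± 0.34 in DP (limma adjusted p = 4.11e-05 and 0.000376). In NCL and in DP, mouse 2 of each genotype was above mouse 1.

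H4bc24, grouped with H2B by its older symbol, was at 8.06, 7.90, 8.00 and 9.45 in NCL, at 7.28, 7.49, 7.87 and 9.15 in DP, and at 6.39, 6.50, 6.51 and 6.20 in AP. Knockout mouse 2 was the highest in NCL and DP, and no NCL or DP value reached the AP range. The differences were 1.95 ± 0.29 and 1.55 ± 0.29 (limma adjusted p = 0.000269 and 0.002). The H2A gene H2aw was 3.21-fold higher in NCL (1.68 ± 0.27) and 2.31-fold higher in DP (1.21 ± 0.27) than in AP, and the linker histone gene H1f2 1.90-fold and 1.78-fold. H2bu2, an H2B gene near H2aw on chromosome 11, was higher 2.34-fold and 2.07-fold, and the H4 gene H4c11, under the lower quartile in 5 arrays, 1.55-fold and 1.44-fold. H4c9, another H4 gene, was called for NCL (1.30 ± 0.33, limma adjusted p = 0.0105). H2aw is read here by a probe set whose probes can match other transcripts, but both of its other probe sets were also above their AP values in every NCL array. With probe sets that can match other transcripts left out, the H2aw difference was 0.94 in NCL against AP, still called, and 0.54 in DP against AP, not called. Within mice, 9 of 18 replication-dependent genes were higher in NCL than in AP in all 4 mice, where 25.9% of all genes were. In DP against AP, 9 were higher in all 4 mice, where 17.6% of all genes were. None of the 18 was lower in all 4 mice in either comparison, where 18.9% of all genes were in NCL and 16.4% in DP. The fibroblast list had 4 of 7 genes called higher in DP than in AP (median difference 1.44) and 1 of 7 in NCL (0.41). Over all genes, 11.3% and 15.9% were called higher. The 3′ less middle probe set difference of Actb, a sign of RNA quality, was 0.03 to 0.39 in NCL, 0.05 to 0.27 in DP and -0.04 to 0.04 in AP. For Gapdh it was -0.03 to 0.43 in NCL, 0.12 to 0.60 in DP and 0.14 to 0.49 in AP, so that the populations overlapped. The part of the fibroblast list or of RNA quality in these differences was not tested.

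The other 9 replication-dependent genes were called in neither comparison. Among them were H3c1, H3c14, H4c8 and H1f4, whose values in NCL and AP overlapped. The lowest difference of the class was -0.50 in NCL and -0.59 in DP, both of H1f4. Among the variants, Macroh2a2, which encodes a macroH2A of silent chromatin, was at 9.34, 9.65, 9.49 and 9.65 in NCL, 9.30, 9.50, 9.56 and 9.53 in DP, and 9.0, 9.02, 8.73 and 8.59 in AP. Its groups did not overlap, with differences of 0.70 ± 0.11 and 0.64 ± 0.11 (limma adjusted p = 0.000407 and 0.00112). The other 8 variants differed from AP by -0.51 to 0.65 in NCL and were not called. Leaving out knockout mouse 2 lowered the count of replication-dependent genes called from 9 to 5 in NCL and from 8 to 4 in DP against AP, and the count of variants from 1 to 0 in both. Without knockout mouse 1, the variant count in DP was also 0, and without either wild-type mouse it was 2 in DP and 3 in NCL. Without wild-type mouse 1, 13 replication-dependent genes were called in NCL.

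**Figure D2:**
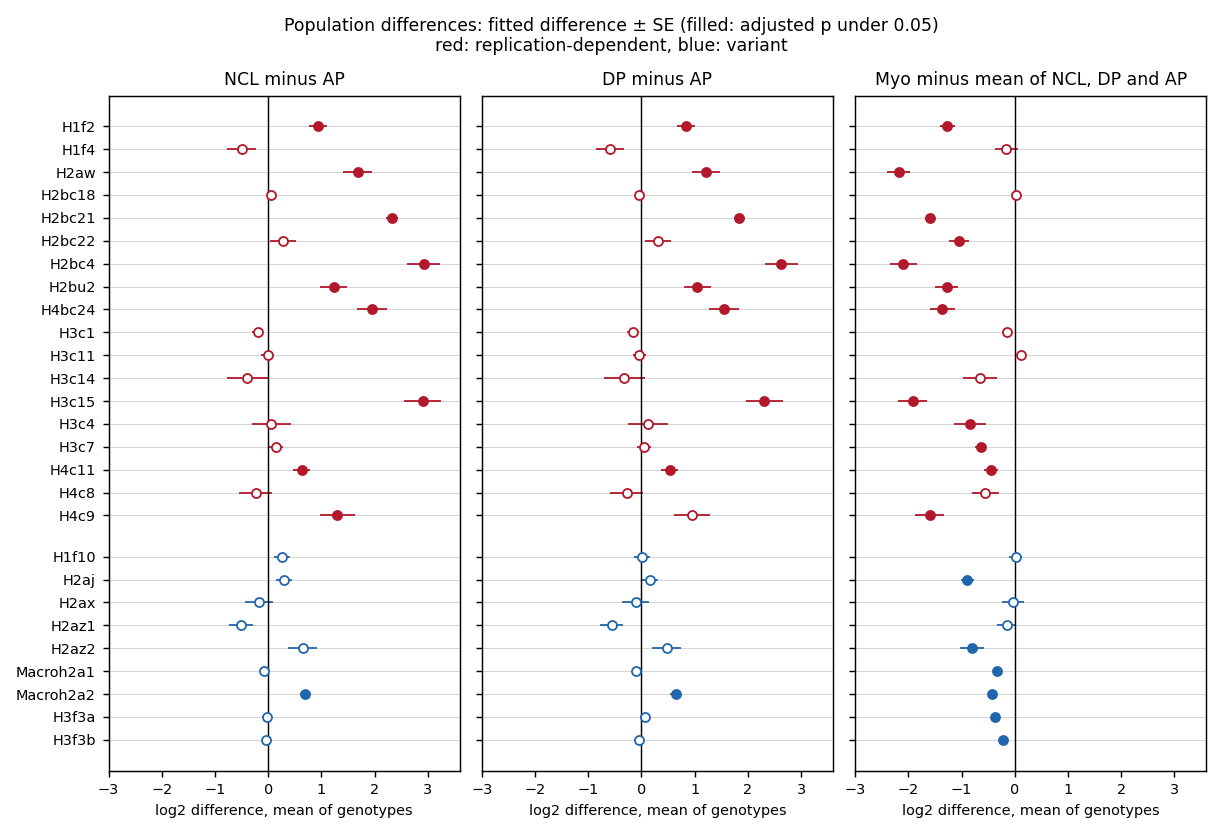
Fitted log2 difference ± SE of each histone gene (mean of both genotypes) for NCL minus AP, DP minus AP, and Myo minus the mean of the 3 luminal populations. Filled points have a limma adjusted p under 0.05. Replication-dependent genes (red) reach 2.92 in NCL minus AP, while the variants (blue) stay between -0.51 and 0.70.

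Between NCL and DP, 0 of 18 replication-dependent genes and 0 of 9 variants were called (limma), where 0.0409% of all genes were called higher and 0.755% lower. At an unadjusted p under 0.05, 1 replication-dependent gene and 0 variants were higher, and 0 of either class were lower. H2bc21 came nearest to a call (0.49 ± 0.11, limma adjusted p = 0.0884), and 7 of 18 replication-dependent genes were higher in NCL than in DP in all 4 mice, where 10.4% of all genes were. NCL had the highest mean of the 4 populations for 11 of 18 replication-dependent genes and 4 of 9 variants. AP had it for 4 of 18 and also for 4 of 9. The same count was not made over all genes, so no share stands beside these.

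Myoepithelial cells had the lowest levels of most histone genes. Against the mean of the 3 luminal populations, 12 of 18 replication-dependent genes were called lower, where 24.4% of all genes were, and 0 higher, where 23.5% of all genes were (0 also at an unadjusted p under 0.05). Among the variants, 6 of 9 were called lower and 0 higher (0 also unadjusted). The median difference was -0.94 for the replication-dependent genes and -0.34 for the variants, beside 0.02 over all genes. H2aw was at 7.37, 8.31, 7.10 and 7.28 in Myo of wild-type mice 1 and 2 and knockout mice 1 and 2, below its lowest luminal value of 8.44, and was 4.52-fold lower (-2.18 ± 0.22, limma adjusted p = 5.11e-06). With probe sets that can match other transcripts left out, its difference was -0.82, still called. H1f2 was at 11.02, 11.82, 10.64 and 10.44 in Myo. It was 2.42-fold lower (-1.27 ± 0.14, limma adjusted p = 1.19e-05), although the Myo array of wild-type mouse 2 lay within the AP range of 11.36 to 12.06. H2bc4 was 4.27-fold lower and H2bc21 3.02-fold lower, with H2bc21 under the lower quartile in all 4 Myo arrays. The H2bc4 difference within mice was -1.55 and 0.05 in wild-type and -3.44 and -3.43 in knockout mice, and in wild-type mice alone it was -0.75 and not called. AP was also low in H2bc4, H2bc21 and H3c15. Beside these differences, 6 of 7 endothelial genes (median difference 0.70) and 4 of 9 leukocyte genes (0.16) were called higher in Myo than in the luminal populations. Their part in the result was not tested.

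Within the Myo arrays, wild-type mouse 2 was the highest for 11 of the 12 replication-dependent genes called lower, as it was for the mitosis list and for an S phase list (0.39 beside -0.22 in wild-type mouse 1). The H2A variant gene H2aj was at 9.90, 10.54, 10.18 and 9.84 in Myo and from 10.77 to 11.44 in the luminal arrays, so that the groups did not overlap (-0.89 ± 0.12, limma adjusted p = 6.49e-05). H3f3a and H3f3b, both of which encode the replacement histone H3.3, were lower by smaller amounts (-0.37 ± 0.07 and -0.23 ± 0.06). H3f3a was at 11.44, 11.57, 11.45 and 11.28 in Myo, below its luminal range of 11.59 to 12.06. Macroh2a1, the main macroH2A gene, was at 11.04, 11.11, 10.84 and 10.83 in Myo (-0.34 ± 0.06), and H2az2, an H2A.Z gene, differed by -0.80 ± 0.22. Macroh2a2 differed by -0.42 ± 0.09 by its brighter probe set, at 8.93, 8.79, 8.86 and 8.87 in Myo, whereas its dimmer probe set was at 8.98 to 9.38 in Myo and at 7.10 to 8.57 in the luminal arrays. The 2 probe sets thus gave opposite directions. H2ax, H2az1 and H1f10 were not called. Without knockout mouse 1 the count of variants was 3, and without knockout mouse 2 it was 2.

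Knockout and wild-type mice were then compared in every population separately and averaged over the 4, which asks whether loss of Cpeb2 goes with a change in histone RNA. No histone gene was called higher in any of these comparisons, and those called lower included variants as well as replication-dependent genes. In NCL, 0 of 18 replication-dependent genes (3 lower and 1 higher at an unadjusted p under 0.05, limma) and 2 of 9 variants were called lower, where 1.73% of all genes were called lower and 0.339% higher. In DP the counts were 1 of 18 and 2 of 9, where 4.35% of all genes were called lower and 3.09% higher. In AP they were 0 of 18 and 0 of 9 (1 and 4 lower unadjusted, limma), where 0.351% of all genes were called lower and 0.269% higher. In Myo they were 1 of 18 and 0 of 9 (2 variants lower unadjusted, limma), where 0.567% of all genes were called lower and 0.445% higher. In the mean over populations 4 of 18 and 3 of 9 were called lower, where 7.04% of all genes were called lower and 3.18% higher. With the parent pair as a replicate block these counts were 7 and 4. Median differences of the replication-dependent genes were -0.30 in NCL, -0.08 in DP, -0.19 in AP and -0.52 in Myo, those of the variants were -0.38, -0.07, -0.35 and -0.22, and those of all genes were 0.03, 0.08, 0.00 and -0.03. The 4 within-population comparisons use different arrays of the same 4 mice. With a mouse block correlation of only 0.0383, the arrays of a mouse counted nearly as separate in the mean over populations. Its SE and p therefore reflect mostly the spread between arrays, while each genotype had 2 mice.

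**Figure D3:**
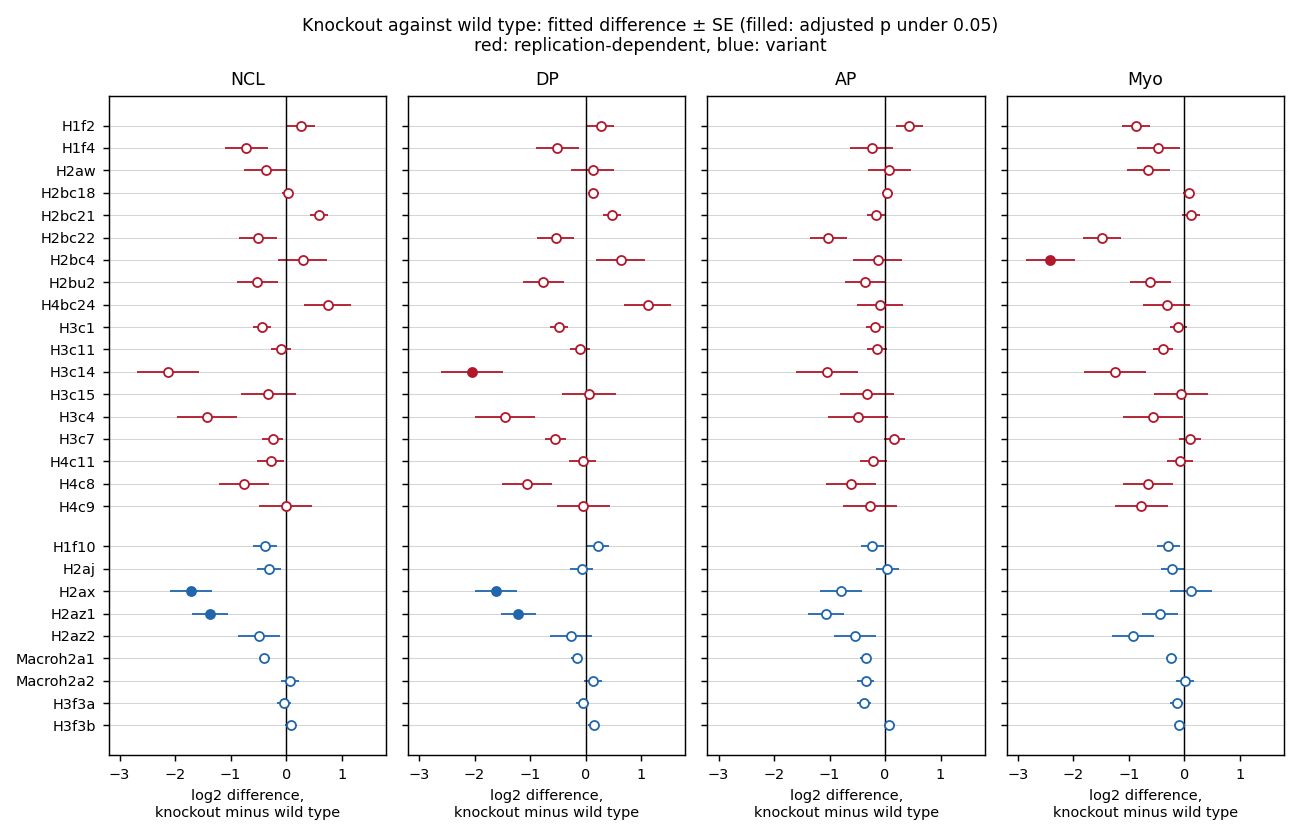
Fitted log2 difference ± SE, knockout minus wild type, of 18 replication-dependent (red) and 9 variant (blue) histone genes in each population. Filled points have a limma adjusted p under 0.05: H2ax and H2az1 in NCL, these 2 and H3c14 in DP, none in AP, and H2bc4 in Myo.

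Of the variants, H2ax and H2az1 showed the largest differences. H2ax encodes the H2A variant that is phosphorylated at DNA breaks. It was at 9.95 and 8.95 in wild-type and 7.66 and 7.80 in knockout NCL, at 9.59 and 9.32 against 7.87 and 7.81 in DP, at 8.89 and 9.42 against 8.54 and 8.19 in AP, and at 8.00 and 9.17 against 8.74 and 8.65 in Myo. Genotypes did not overlap in NCL, DP and AP and overlapped in Myo. H2ax was 3.29-fold lower in knockout NCL (-1.72 ± 0.38, limma adjusted p = 0.0415) and 3.08-fold lower in knockout DP (-1.62 ± 0.38, limma adjusted p = 0.0304). It differed by -0.79 ± 0.38 in AP and 0.11 ± 0.38 in Myo, neither of them called, and over the 4 populations it was 2.01-fold lower (-1.0 ± 0.20, limma adjusted p = 0.009). H2az1 encodes the main H2A.Z, a variant found at promoters. It was at 11.63 and 10.92 in wild-type and 9.80 and 10.00 in knockout NCL, at 11.45 and 10.85 against 9.95 and 9.92 in DP, at 11.41 and 11.85 against 10.44 and 10.71 in AP, and at 10.37 and 11.26 against 10.50 and 10.24 in Myo. Here too the genotypes were apart in NCL, DP and AP only. H2az1 was 2.59-fold lower in NCL (-1.37 ± 0.32, limma adjusted p = 0.0494), 2.32-fold lower in DP (-1.21 ± 0.32, limma adjusted p = 0.0412) and 2.03-fold lower over the 4 populations (-1.02 ± 0.17, limma adjusted p = 0.00366). The 2 calls in NCL lie close to the threshold, and without either knockout mouse no variant was called in NCL or in DP. Without wild-type mouse 1, 1 variant was called in DP and 3 were called in AP. Fitting only the 4 arrays of a population gave 0 calls in each class and population.

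Macroh2a1 was the third variant called over the 4 populations, by a small amount. It was at 11.50 and 11.46 against 11.03 and 11.16 in NCL, 11.31 and 11.37 against 11.19 and 11.16 in DP, 11.57 and 11.50 against 11.16 and 11.20 in AP, and 11.04 and 11.11 against 10.84 and 10.83 in Myo. Both knockout arrays were below both wild-type arrays in every population, and the mean difference was -0.28 ± 0.05 (limma adjusted p = 0.00773). H2az2 differed by -0.56 ± 0.20 over the 4 populations and H3f3a by -0.15 ± 0.06, and neither was called (limma adjusted p = 0.103 and 0.154). H3f3b, H2aj, H1f10 and Macroh2a2 differed by 0.05 ± 0.05, -0.14 ± 0.11, -0.17 ± 0.11 and -0.03 ± 0.08. H3f3b lay between 12.71 and 13.12 in all 16 arrays. The 3′ less middle probe set difference of Actb was 0.25 and 0.39 in wild-type against 0.22 and 0.03 in knockout NCL, and 0.12 and 0.27 against 0.05 and 0.06 in DP. That of Gapdh was 0.42 and 0.21 against 0.43 and -0.03 in NCL, 0.60 and 0.39 against 0.15 and 0.12 in DP, and 0.14 and 0.18 against 0.49 and 0.23 in AP. Their part in these results was not tested.

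Among the replication-dependent genes, the H3 genes H3c14 and H3c4 had the largest mean differences over the 4 populations. Both are read here by the brighter of their 2 probe sets. The dimmer ones, given further below, had no lower mean in knockout than in wild-type NCL or DP. H3c14 was at 12.18 and 11.32 in wild-type and 9.56 and 9.66 in knockout NCL, at 12.12 and 11.41 against 9.99 and 9.47 in DP, at 11.10 and 12.08 against 10.74 and 10.34 in AP, and at 9.74 and 11.84 against 9.67 and 9.42 in Myo. No knockout value reached the wild-type range of its population. H3c14 was 4.11-fold lower in knockout DP (-2.04 ± 0.56, limma adjusted p = 0.0484) and 3.07-fold lower over the 4 populations (-1.62 ± 0.30, limma adjusted p = 0.0062), and its difference of -2.13 ± 0.56 in NCL was not called (limma adjusted p = 0.0747). H3c4 was at 11.61 and 10.59 against 9.58 and 9.77 in NCL, 11.51 and 10.82 against 9.55 and 9.88 in DP, 10.11 and 11.03 against 10.28 and 9.88 in AP, and 8.90 and 10.76 against 9.47 and 9.05 in Myo. It was apart by genotype in NCL and DP only, and was called in the mean (-0.98 ± 0.28, limma adjusted p = 0.0474). H3c1, read by a probe set that can match other H3 transcripts, was at 13.29 and 13.08 against 12.80 and 12.70 in NCL, 13.33 and 13.14 against 12.83 and 12.70 in DP, 13.14 and 13.36 against 13.14 and 13.01 in AP, and 12.66 and 13.25 against 12.91 and 12.79 in Myo. It was apart by genotype in NCL and DP and differed by -0.30 ± 0.09 over the 4 populations (limma adjusted p = 0.0459).

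H2B genes differed among themselves. H2bc22 was at 12.70 and 12.19 in wild-type and 11.68 and 12.18 in knockout NCL, 12.70 and 12.28 against 11.91 and 12 in DP, 12.23 and 12.61 against 11.75 and 11.05 in AP, and 11.26 and 12.34 against 10.29 and 10.35 in Myo. Each knockout array was below both wild-type arrays of its population, in NCL only just, and the mean difference was -0.89 ± 0.18 (limma adjusted p = 0.00995). H2bc4 was called lower in knockout Myo, at 6.90 and 7.33 against 8.62 and 10.45, a 5.34-fold difference (-2.42 ± 0.44, limma adjusted p = 0.0285). It differed by 0.30 ± 0.44 in NCL, 0.63 ± 0.44 in DP and -0.13 ± 0.44 in AP. H2bc21 was above wild type in both knockout arrays of NCL and DP (0.59 ± 0.16 and 0.48 ± 0.16) but was not called (limma adjusted p = 0.0792 and 0.0796). The H2bc4 difference in Myo ranged from -3.33 to -1.50 when single mice or arrays were left out and kept its call in 14 of 20 such fits. Beside it, the luminal list in Myo was at -2.33 and -1.77 relative to its mean in wild-type and -1.84 and -1.94 in knockout arrays, the endothelial list at 0.30 and 0.35 against 0.67 and 1.26, and the mitosis list at -0.67 and 1.02 against -1.11 and -1.03. Their part in the result was not tested.

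Single mice moved these counts. Without wild-type mouse 1, the count of replication-dependent genes called was 1 in NCL, 1 in AP, 10 in Myo and 8 in the mean over populations, and 3 variants were called in Myo, where the wild-type arm was then mouse 2 alone. Without wild-type mouse 2 it was 5 in NCL, 6 in DP, 0 in Myo and 6 in the mean, and the median difference in Myo was 0.01. Without knockout mouse 1 it was 1 in NCL, 0 in Myo and 1 in the mean, and without knockout mouse 2 it was 0 in every comparison. For the variants in the mean it was 1 and 0 without knockout mouse 1 and 2. A lone mouse is assumed in such fits to vary like the other groups. Between mice with the same parents, 9 of 18 replication-dependent genes were lower in the knockout mouse of both pairs in NCL and 3 were higher, where 26.9% and 36.5% of all genes were. In DP 8 were lower and 6 higher, where 26.7% and 44.3% of all genes were. In AP 6 were lower and 1 higher, where 30.5% and 29.7% of all genes were, and in Myo 9 were lower and 0 higher, where 31.3% and 23.2% of all genes were. Of the 9 variants, 6, 5, 7 and 3 were lower in both pairs and 0, 3, 0 and 0 were higher, in NCL, DP, AP and Myo.

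Probe sets of the same gene gave different patterns, which bears on H3c14 and H3c4. The dimmer probe set of H3c14 was at 6.84 and 7.86 in wild-type and 6.98 and 8.01 in knockout NCL, at 6.52 and 7.12 against 6.70 and 7.85 in DP, and at 4.19 to 4.82 in AP and Myo. It was high in NCL and DP as were H2bc21, H2bc4 and H3c15 (NCL minus AP 2.79 ± 0.30, limma adjusted p over all probe sets = 2.35e-05). Its AP values were all under the lower quartile, so this difference may understate the true size. Its genotypes overlapped in NCL and DP. The brighter probe set, used above, parted the genotypes and had no difference called between NCL and AP. The dimmer probe set of H3c4 was at 8.07 and 7.75 against 8.14 and 8.49 in NCL, 7.72 and 7.70 against 7.52 and 8.57 in DP, 7.04 and 7.22 against 7.24 and 6.75 in AP, and 6.64 and 7.24 against 6.71 and 6.62 in Myo. It too was higher in NCL than in AP (1.05 ± 0.22, limma adjusted p over all probe sets = 0.00342), in all 4 mice. The brighter H3c14 probe set can match other H3 transcripts by its suffix, so the gene behind its signal is uncertain. Both probe sets of H1f2 were higher in NCL than in AP and lower in Myo.

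**Figure D4:**
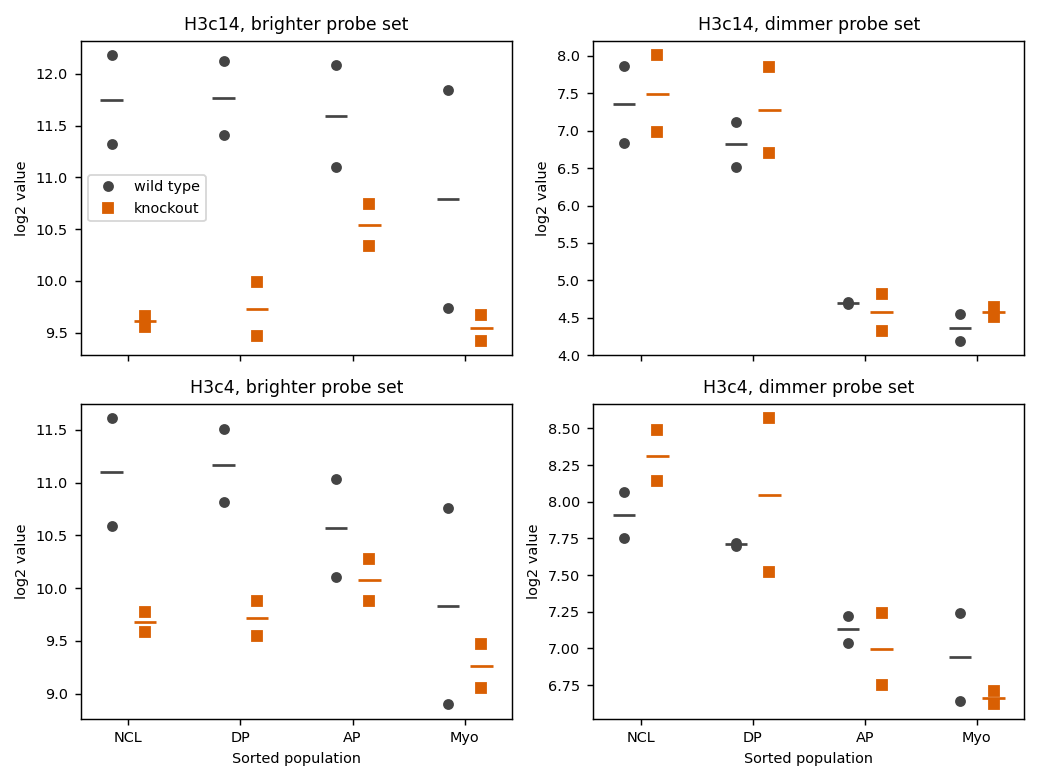
Log2 value of the brighter (left) and dimmer (right) probe set of H3c14 and H3c4 in each array, by population, with points for mice, lines for the mean of 2, and a value axis of its own in each panel. The brighter probe sets are lower in knockout NCL and DP, at 9.47 to 9.99 for H3c14. The dimmer ones are high in NCL and DP and low in AP and Myo in both genotypes.

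The H2A genes H2ac18 and H2ac19 are read only by 2 probe sets that they share. The first was at 10.49 and 10.50 in wild-type and 8.73 and 9.17 in knockout NCL, 10.83 and 10.94 against 9.57 and 9.94 in DP, 10.72 and 11.37 against 10.16 and 10.26 in AP, and 9.57 and 10.61 against 9.53 and 10.00 in Myo. Genotypes did not overlap in the 3 luminal populations, and in NCL the difference was called over all probe sets (-1.54 ± 0.31, limma adjusted p = 0.0394), as it was over the 4 populations (-0.96 ± 0.16, limma adjusted p = 0.00592). The second, which can match still other transcripts, differed by -0.48 in NCL and was not called. The first was lower in NCL than in AP (-0.91 ± 0.22, limma adjusted p over all probe sets = 0.00754), where H2bc4 and H2bc21 were higher. The second did not share this direction. Its NCL minus AP difference was 0.23 and -0.19 in wild-type and 0.16 and -0.03 in knockout mice. The H3f3a pseudogene H3f3a-ps2 shares its probe set with H3f3a. That probe set lay between 11.91 and 12.60 in all arrays and was called in no comparison.

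Other genes of histone supply were read from a list of 20 genes, of which 19 were measured. No gene of it was called higher in a knockout comparison. Of all genes, 1.73% were called lower in NCL, 4.35% in DP, 0.351% in AP, 0.567% in Myo and 7.04% in the mean over populations. In DP, 2 were called lower, namely Npat, the activator of histone gene transcription (-1.12 ± 0.28), and Eri1, a nuclease of histone RNA ends (-1.14 ± 0.31). In Myo, 1 was called lower, the S phase factor E2f1 (-1.0 ± 0.19). None was called in NCL or AP (limma; 8 and 2 lower at an unadjusted p under 0.05). In the mean over populations, 4 were called lower: Slbp, which binds the stem-loop of histone RNA (-0.55 ± 0.15), Cdk2, the kinase of S phase entry (-0.49 ± 0.10), E2f1 (-0.56 ± 0.10) and Nfyc, a subunit of the factor that binds CCAAT (-0.38 ± 0.10). A list of histone chaperones, which also holds the histone Cenpa, had 16 measured genes out of 22. Of these, 1 was called lower in NCL, 6 in DP, 0 in AP, 0 in Myo (3 lower in each unadjusted, limma) and 8 in the mean, and none higher. Cenpa is among the 8. Asf1b, a chaperone of new H3 and H4, differed by -1.95 ± 0.37 in NCL and -2.13 ± 0.37 in DP. Hat1, which acetylates new H4, differed by -1.84 ± 0.37 in DP, and Anp32e, which removes H2A.Z, by -1.69 ± 0.42. Mis18a, Nap1l1 and Rbbp7 were also called lower in DP (-2.39 ± 0.52, -1.27 ± 0.25 and -0.94 ± 0.23). Chaf1b, of the assembly factor CAF-1, differed by -1.34 ± 0.19 in the mean, and Cenpa, the H3 variant of centromeres, by -2.05 ± 0.48. Asf1b, Hat1, Anp32e, Mis18a, Nap1l1 and Rbbp7 were called lower in the mean as well.

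S phase genes other than histones moved in the same comparisons. Of 23 measured, 13 were called lower in NCL, 19 in DP, 9 in AP, 4 in Myo and 22 in the mean over populations. Over all genes the shares called lower were 1.73%, 4.35%, 0.351%, 0.567% and 7.04%. The median differences of the list were -2.05, -1.98, -1.86, -0.92 and -1.76, beside the replication-dependent medians of -0.30, -0.08, -0.19, -0.52 and -0.24. As a mean over its genes, each taken relative to its own mean, the S phase list was at 1.62 and 0.54 in wild-type and -0.72 and -0.95 in knockout NCL, and at 1.08 and 1.22 against -0.63 and -0.75 in AP. The replication-dependent histones were at 0.82 and 0.67 against 0.20 and 0.63 in NCL and at -0.31 and 0.05 against -0.25 and -0.51 in AP. In wild-type mice the S phase list of AP thus lay between the 2 NCL values, while the histones of AP lay below both. For NCL against AP, 1 S phase gene of 23 was called, and it was lower, where 12.6% of all genes were called lower. Of 17 mitosis genes, 16 were higher on average in NCL than in AP (median difference 0.37) and 16 in DP than in AP (0.27), and 1 was called higher in each comparison. Over all genes, 15.9% and 11.3% were called higher in these comparisons. The part of proliferating cells in the histone results was not tested, nor was that of the fibroblast list in DP, at 1.86 and 0.37 in wild-type against 0.17 and -0.10 in knockout arrays. Beside it, 4 of 8 alveolar markers were called lower in knockout DP (median difference -0.77), where 4.35% of all genes were. Of 6 hormone-sensing markers, 3 were called higher there (median difference 0.88), where 3.09% of all genes were. The part of these markers was not tested. Whether replication-dependent RNAs without a poly(A) tail were captured as well as S phase RNAs was not tested either.

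**Figure D5:**
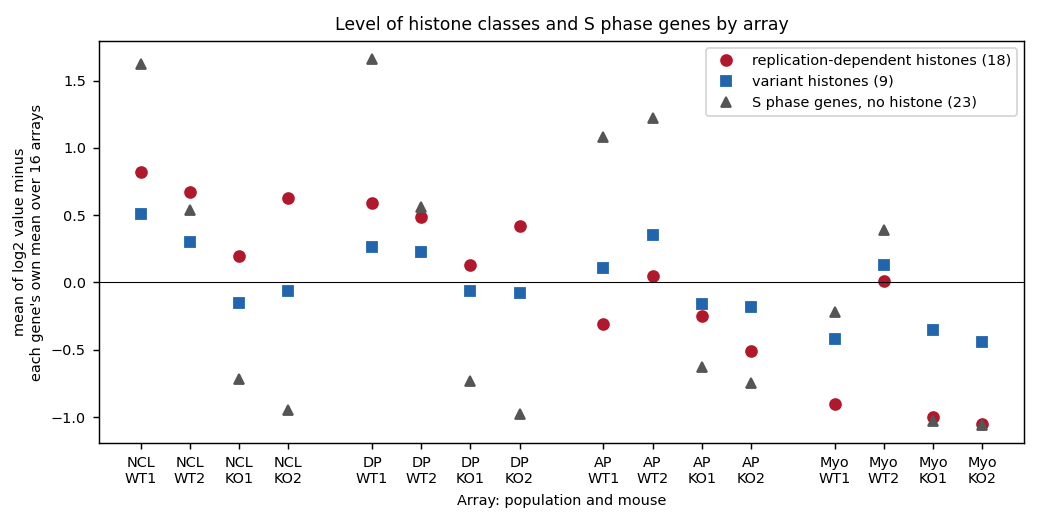
Level of 18 replication-dependent histone genes, 9 variant histone genes and 23 S phase genes in each array, as the mean over genes of the log2 value minus each gene's own mean over the 16 arrays. The S phase genes lie from 0.54 to 1.66 in wild-type luminal arrays and from -0.98 to -0.63 in knockout luminal arrays, while replication-dependent histones lie from 0.13 to 0.82 in all NCL and DP arrays.

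Whether the knockout difference itself differed between populations was asked with an F test over all arrays, in which 0.667% of all genes were called. None of the histone genes was called (limma), and 3 replication-dependent genes, 1 variant and 1 germ-line gene had an unadjusted p under 0.05. H2bc4 came nearest (limma adjusted p = 0.0843), followed by H1f2 (0.161) and H2ax (0.192). The knockout differences of H2bc4 and H2ax are therefore not shown to differ between populations. The 4 germ-line genes H1f6, H1f7, H1f8 and H2al2a were called in no comparison, and H1f8, an oocyte linker histone, was under the lower quartile in 15 of 16 arrays. In knockout against wild-type DP, 2 of them were higher at an unadjusted p under 0.05 (limma).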

How the data were processed

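RNA of 16 samples was measured on Affymetrix mouse arrays. The deposited values are log2 expression per probe set; the submitters' processing notes name RMA and limma, without role or version. How background and batches were handled is not stated in any source used. Of 45141 probe sets, 28898 had 1 gene symbol in the platform annotation, 551 several and 15588 none, and 104 were controls. The brightest probe set of each gene gave 17097 genes.

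A limma model (version 3.58.1, R 4.3.3, statmod 1.5.0) was fitted to 8 group means with mouse as random block (correlation 0.0383) and an intensity trend (8 residual and 3.9 prior degrees of freedom). Benjamini-Hochberg adjustment covered all genes, and calls were made under 0.05. The script was tested on simulated data. No other tool was run. Tests were two-sided, and the mice were separate animals.

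Members, lists, classes and the naming rule were chosen with earlier results of these data known. The rule named, for each comparison, up to 4 called members per class by smallest p, all variants, and called pathway genes (up to 8). Pathway genes called between populations were not named, which departs from this rule. H2aw, H2bu2 and H4bc24 were classed as replication-dependent and Macroh2a1 and Macroh2a2 as variants by older symbols. H2al2a was placed with germ-line genes, which departs from the written rule that any other H2af name is a variant.

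Mouse 1 of both genotypes had the same parents, as had mouse 2. Deviations of same-parent mice correlated at 0.0737 in NCL, -0.00688 in DP, 0.0593 in AP and -0.0432 in Myo, so the main model has no parent block. Alternatives covered probe set choice, a filter on low values, quantile normalization, the mouse and parent blocks, the trend, array weights, subsets of arrays and mice or arrays left out. Promoter windows are from RefSeq (GRCm38.p6).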

Additional observations from a re-analysis of the deposited data

How the results depend on the processing

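Called genes are counted below as replication-dependent, then variant. With array weights 2 replication-dependent genes (0 in the main model) were called for knockout NCL, 1 variant (0) for AP and 3 variants (1) for NCL against AP. Knockout NCL variants (2) were 1 with the mean of a gene's probe sets, 1 with every probe set a feature, 0 after quantile normalization and 1 without the trend. The knockout DP replication-dependent gene (1) was 0 with the mean, without x and s probe sets and without the trend, and in the mean over populations (4) the count was 2 in these 3 settings. Only the population's own arrays gave 0 for DP and NCL variants and for the DP and Myo replication-dependent genes. The parent pair as a replicate block gave 7 in place of 4 replication-dependent genes in the mean, and otherwise moved no count by over 1.5 times; the numbers share only parents. Every probe set as a feature gave 19 and 10 for Myo against luminal cells, 15 and 3 for NCL against AP, and 2 variants for DP against AP, partly because more features are counted. The mean of probe sets gave 2 variants for NCL against AP. Wild-type mice alone gave 5 and 0 for DP against AP. With current symbols alone, chosen after seeing the data, the counts were 5 and 0 for DP against AP and 0 variants for NCL against AP, with fewer members. Directions turned for H3c14 without x and s probe sets, to 0.46 in DP and 0.17 in the mean, and for Macroh2a2 in Myo with the mean of probe sets, to 0.39. Leaving out 1 mouse or array gave 0 to 5 and 0 to 2 calls for knockout NCL, 0 to 6 and 0 to 2 for DP, 0 to 1 and 0 to 3 for AP, 0 to 10 and 0 to 3 for Myo, 0 to 8 and 0 to 4 in the mean, 10 to 16 and 2 to 8 for Myo against luminal, 4 to 11 and 0 to 2 for DP against AP, 5 to 13 and 0 to 3 for NCL against AP, and 0 to 1 replication-dependent for NCL against DP. The cause was not tested where none is named. H2bc18, H2bc21, H3c15 and H4c11 were under the lower quartile in 2, 8, 8 and 5 arrays, which limits their differences.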
